A study of Caenorhabditis elegans with 15 samples.

Results

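Worms given atg-2 RNAi were compared directly with worms given atg-18 RNAi, without passing through the control. The comparison used 6 of the 15 libraries of the series, 3 per RNAi group, and 12507 of the 42048 genes in the deposited tables, those with a mean of at least 1 RPKM (reads divided by gene length and library total) over the 6 libraries. Of these genes 11538 are protein coding in the WBcel235 annotation. All 6 libraries came from whole Caenorhabditis elegans of strain SHU47, labelled glp-1, kept at 20 °C and collected on adult day 1. Both groups ate HT115 (DE3) bacteria carrying an L4440 plasmid that makes double-stranded RNA, against atg-2 in the first group and atg-18 in the second. The sample names call the knockdown neuronal. The titles carry the letters TU of TU3401, a strain known for feeding RNAi that acts mainly in neurons because the double-stranded RNA channel SID-1 is restored there. The sources used here do not give the glp-1 allele or the make-up of SHU47. Loss of the Notch receptor GLP-1 removes most of the germline, and such worms are long-lived. A further 3 libraries each of the same strain on hlh-30 RNAi and on luc RNAi, the control, entered the same model to estimate the spread and to place both groups. The labels do not state whether the 3 libraries per group are separate cultures, and p-values therefore reflect the spread of these libraries alone, which may be technical.

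ATG-2 and ATG-18 work at the same step of autophagy, the process that wraps cytoplasm in a double membrane and delivers it to the lysosome. ATG-18, a WIPI-family protein, binds the lipid phosphatidylinositol 3-phosphate on the growing membrane and helps to place ATG-2, which moves lipids from the endoplasmic reticulum into that membrane. Knockdown of either gene is widely used to block autophagosome growth, and a direct comparison shows which transcripts differ between the pair of knockdowns.

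Depth was 18846033 to 24153207 recovered reads per library in the 6 libraries, and summed RPKM was 1024335 to 1049369. Differences are atg-2 RNAi minus atg-18 RNAi on the log2(RPKM + 1) scale, which understates the change of low genes, and they were tested with limma and Benjamini-Hochberg adjustment over all 12507 genes. A gene was called at an adjusted p under 0.05. A pair of features of the libraries bears on what follows. First, neither atg-2 nor atg-18 had a lower mean in the libraries labelled with its own RNAi, as described next. Second, library 1 of the atg-2 RNAi group held more germline RNA than the other 5 libraries, and list medians and the single genes it moves most are also given without it.

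The target genes were read first. atg-2 stood at 43.1, 39.4 and 38.0 RPKM in the libraries labelled atg-2 RNAi, against 30.7, 20.5 and 19.2 RPKM in the libraries labelled atg-18 RNAi. All 3 atg-2 RNAi libraries were above all 3 atg-18 RNAi libraries, and also above the hlh-30 RNAi libraries (26.2, 23.5 and 18.3 RPKM) and the luc libraries (34.7, 26.6 and 28.9 RPKM). The group means were 40.2 ± 2.66 RPKM with atg-2 RNAi and 23.4 ± 6.32 RPKM with atg-18 RNAi (SD, n = 3 each), a log2 difference of 0.78 (95% interval 0.396 to 1.16) with limma adjusted p = 0.791, so atg-2 was not called. Whether reads from the double-stranded RNA add to the count of a target gene was not tested.

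atg-18 stood at 74.4, 63.7 and 73.6 RPKM in the libraries labelled atg-2 RNAi, against 49.1, 81.3 and 116 RPKM in the libraries labelled atg-18 RNAi. The atg-18 RNAi libraries lay on both sides of the atg-2 RNAi libraries and of the luc libraries (78.5, 68.8 and 70.1 RPKM), with 1 library below and 2 above. Their SD of 33.3 RPKM exceeded the 5.96 RPKM of the atg-2 RNAi libraries. The log2 difference was -0.13 (95% interval -0.641 to 0.373, limma adjusted p = 0.999), and without atg-18 RNAi library 3 it turned to 0.15. Because the RNA came from whole worms, less transcript in neurons and fewer neurons cannot be told apart, and a loss limited to neurons may not be visible against other tissues in these values.

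**Figure D1:**
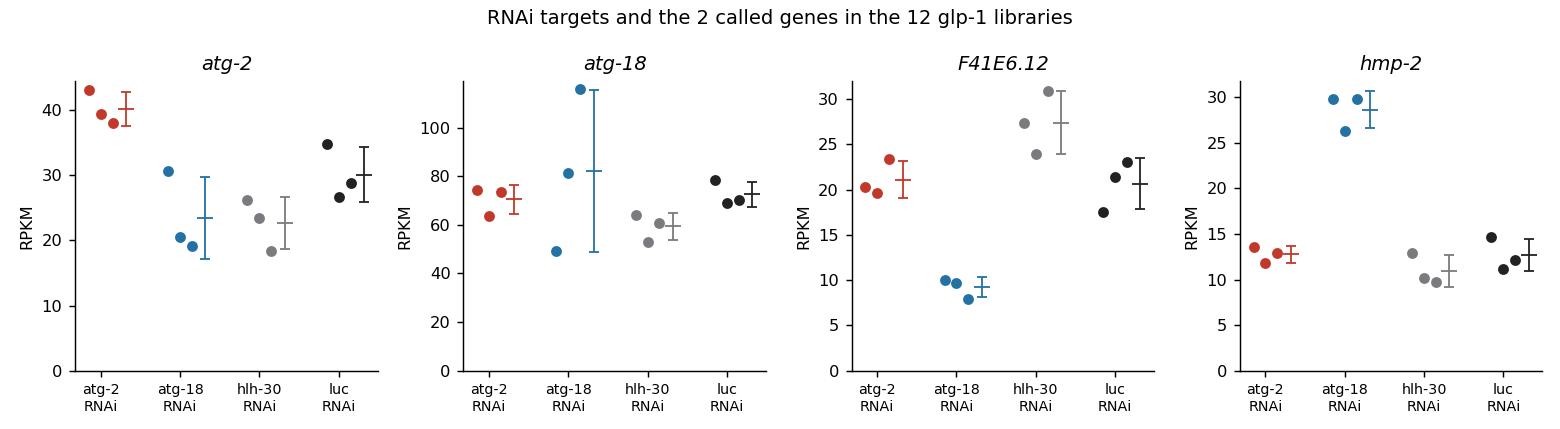
RPKM of atg-2, atg-18, F41E6.12 and hmp-2 in each of the 12 glp-1 libraries, by RNAi group in the order atg-2, atg-18, hlh-30 and luc; dots are libraries and the bar beside them is the mean ± SD (n = 3). The atg-2 RNAi group is the highest of the 4 for atg-2, the atg-18 RNAi libraries spread from 49.1 to 116 RPKM for atg-18, and the atg-18 RNAi group stands apart for F41E6.12 and hmp-2.

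Across the transcriptome the groups differed little. Of 12507 genes 2 were called (0.0160%), 1 higher with atg-2 RNAi (F41E6.12; 0.00800%) and 1 lower (hmp-2; 0.00800%). At an unadjusted p under 0.05 there were 401 genes (3.21%), 150 of them higher with atg-2 RNAi (1.20%) and 251 lower (2.01%). The 3 libraries of one group lay wholly above or below those of the other for 1001 genes (8.00%). The median difference over all genes was -0.004 and the median size of a difference was 0.0744 on the log2 scale.

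The limits that these data set on a difference were narrow for most genes on the log2(RPKM + 1) scale. The 95% interval lay within 1 either way on that scale for 11681 genes (93.4%), and within 0.5 either way for 9274 genes (74.2%). For genes of few RPKM a difference of 1 on that scale is more than a doubling or halving of RPKM. Between same-numbered libraries of the groups, the median size of the log2 difference over the 8548 genes with at least 5 RPKM was 0.0836 to 0.0991. Within the atg-2 RNAi group, libraries differed from each other by 0.1035 to 0.1405, and within the atg-18 RNAi group by 0.117 to 0.143. A library thus lay closer to its same-numbered counterpart on the other RNAi than to any other library of its own group.

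Differences of at least 1 on the log2 scale were found for 136 genes (1.09%), 92 higher with atg-2 RNAi and 44 lower. Most of the lower ones, 33 of 44, were 21ur genes, which encode piRNAs, the small RNAs that silence transposons in the germline. A 21ur gene is 21 bases long, so 1 read is worth about 2 RPKM and few reads carry it past the filter, and 0 of the 284 tested were called. Of the 92 higher ones 37 were 21ur genes, and 52 had their highest value in atg-2 RNAi library 1. The filter admits genes that reach the minimum mean through that library alone, so the last count is partly set by the filter. Without that library there were 69 higher and 60 lower genes.

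**Figure D2:**
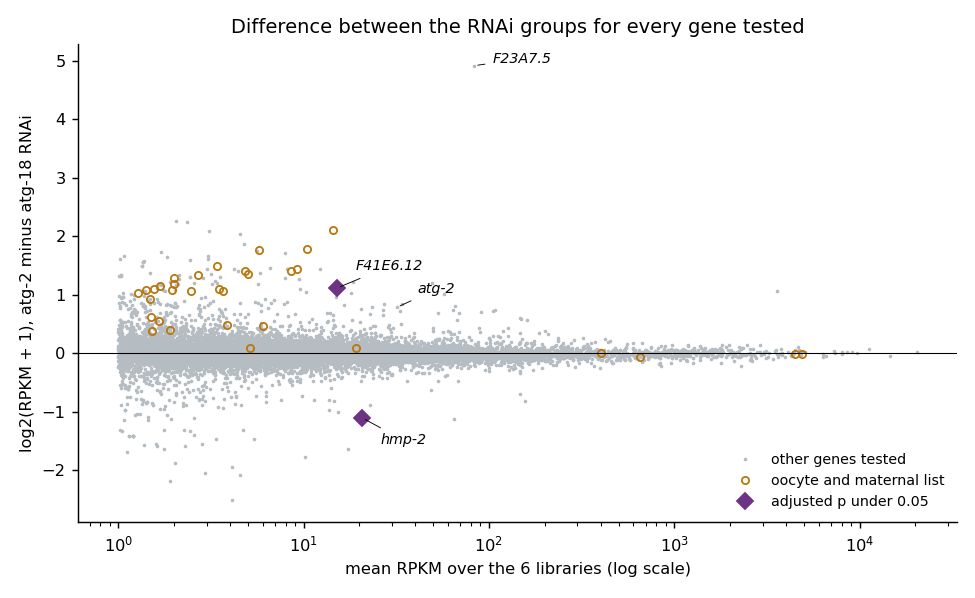
Log2 difference, atg-2 RNAi minus atg-18 RNAi, against mean RPKM over the 6 libraries (log scale) for the 12507 genes tested. The 2 called genes are diamonds at 1.11 and -1.11, members of the oocyte and maternal list are open circles with a median of 1.07, and F23A7.5 lies at 4.91.

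hmp-2 was lower with atg-2 RNAi than with atg-18 RNAi. It encodes a β-catenin that links the cadherin HMR-1 to the α-catenin HMP-1 at the adherens junctions of epithelia. It stood at 13.6, 11.8 and 12.9 RPKM in the atg-2 RNAi libraries, against 29.9, 26.3 and 29.8 RPKM in the atg-18 RNAi libraries. The groups were far apart, and the atg-2 RNAi libraries lay among the luc libraries (14.7, 11.2 and 12.2 RPKM) and close to the hlh-30 RNAi libraries (12.9, 10.2 and 9.76 RPKM). The atg-18 RNAi libraries were thus the ones set apart, above the control. The means were 12.8 ± 0.930 RPKM with atg-2 RNAi and 28.7 ± 2.05 RPKM with atg-18 RNAi (SD, n = 3 each), a ratio of 0.445. The log2 difference was -1.11 ± 0.118 (SE; 95% interval -1.37 to -0.849) with limma adjusted p = 0.0171. Between 562 and 1388 recovered reads per library lay behind these values. With the replicate number as a block in the same model the adjusted p was 0.00114. It was 0.379 for a difference of -1.07 with all 12 glp-1 libraries scaled on the summed RPKM of pan-neuronal and muscle genes. Muscle genes made up most of that sum, with 17071 RPKM against 1400 RPKM for pan-neuronal genes in atg-2 RNAi library 1. hmp-2 was also not called with only the 6 libraries in the fit (0.0523), without any 1 of the atg-18 RNAi libraries or without atg-2 RNAi library 2 or 3 (0.0672 to 0.0913). Over all 24 alternatives the difference was -1.17 to -1.06.

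The other listed genes of epithelial junctions had smaller differences than hmp-2. This list of 13 genes was drawn up after the value of hmp-2 had been seen. The differences of its 12 tested members ranged from -0.12 to 0.20, with a median of 0.07 against -0.004 over all genes. Of the 12 genes 0 were called and 0 had an unadjusted p under 0.05 in limma. Over all 12507 genes the shares were 0.0160% and 3.21%, so counts of 0 in so few genes say little. The α-catenin gene hmp-1 stood at 11.8, 10.1 and 10.1 RPKM in the atg-2 RNAi libraries, against 10.4, 8.65 and 8.49 RPKM in the atg-18 RNAi libraries. The difference was 0.19 (95% interval -0.0689 to 0.458). The cadherin gene hmr-1 differed by 0.12 (-0.179 to 0.427), the p120 catenin gene jac-1 by -0.03 (-0.199 to 0.136), and the apical junction gene ajm-1 by 0.06 (-0.0960 to 0.208). Among the other β-catenin genes, the Wnt effector bar-1 differed by -0.12 (-0.303 to 0.0651) and wrm-1, which acts in asymmetric cell division, by 0.20 (-0.0643 to 0.456), while sys-1 was below the filter. The intervals of these genes do not reach the difference of hmp-2.

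The genes beside hmp-2 in the WBcel235 annotation were not called either. Of the 6 genes on each side 6 were tested, 0 were called, and their differences ranged from -0.14 for the mitochondrial import gene mtx-1 to 0.38 for K05C4.7.

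F41E6.12 was higher with atg-2 RNAi than with atg-18 RNAi. The sources used here give no role for this protein-coding gene. It stood at 20.3, 19.6 and 23.4 RPKM in the atg-2 RNAi libraries, against 10.04, 9.73 and 7.94 RPKM in the atg-18 RNAi libraries. The groups did not overlap, and the atg-2 RNAi libraries lay within or just above the luc range (17.5, 21.4 and 23.01 RPKM), so the atg-18 RNAi libraries were the ones set apart. The hlh-30 RNAi libraries were the highest (27.4, 23.9 and 30.9 RPKM). The means were 21.1 ± 2.03 RPKM with atg-2 RNAi and 9.24 ± 1.13 RPKM with atg-18 RNAi (SD, n = 3 each), a ratio of 2.29. The log2 difference was 1.11 ± 0.126 (SE; 95% interval 0.835 to 1.39) with limma adjusted p = 0.0171, on 137 to 496 recovered reads per library. With the replicate number as a block it was no longer called (adjusted p = 0.0638), nor with only the 6 libraries in the fit (0.122) or without any 1 of those 6 libraries (0.0665 to 0.0954). Over all 24 alternatives the difference was 1.02 to 1.19 and the highest adjusted p 0.302.

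F41E6.12 is the next protein-coding gene downstream of atg-18, on the same strand, in the WBcel235 annotation. It overlaps F41E6.17 on the opposite strand, and the sources used here do not say whether counting used strand, so reads of the pair cannot be told apart; F41E6.17 averaged 2.90 RPKM. The other 5 tested genes within 6 genes of atg-18 ranged from -0.08 for the hedgehog-related gene grd-5 to 0.43 for F41E6.17, and 0 were called. fip-4 differed by 0.32, and F28A12.3 and asp-13 on the upstream side by 0.04 and 0.01. Around atg-2, all 11 tested neighbours lay between -0.05 for H22K11.3 and 0.09 for M03A8.3. Among these, the aspartyl protease gene asp-3 differed by -0.01 and the peroxisomal dehydrogenase gene dhs-28 by 0.08. The 95% interval of F41E6.17 was -0.0187 to 0.880, so it reached into that of F41E6.12, and the libraries of the RNAi groups did not overlap for it. The difference between F41E6.12 and its neighbours was not tested.

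F23A7.5 had the largest difference of all tested genes, and it was not called. It stood at 26.6, 95.5 and 370 RPKM in the atg-2 RNAi libraries, against 2.08, 2.33 and 2.51 RPKM in the atg-18 RNAi libraries. All 3 atg-2 RNAi libraries were above all 9 others, with luc at 2.22, 2.44 and 2.26 RPKM and hlh-30 RNAi at 2.26, 1.88 and 2.68 RPKM, but they differed widely among themselves. The log2 difference was 4.91 (95% interval 3.46 to 6.37) with limma adjusted p = 0.0572, the lowest of the genes not called. It passed without atg-2 RNAi library 1 (5.84, adjusted p = 0.000767) and without library 3 (3.96, adjusted p = 0.0174). The sources used here give no role for this protein-coding gene. Its 7 tested neighbours ranged from -0.05 to 0.31 and 0 were called.

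A further 14 genes, atg-2 among them, were chosen for the smallest p-values among uncalled genes of at least 2 RPKM whose groups did not overlap. They are given as not called, with adjusted p of 0.412 to 0.806. B0205.13 had 11.2, 9.59 and 10.1 RPKM with atg-2 RNAi, against 16.5, 19.0 and 21.05 RPKM with atg-18 RNAi. Its difference was -0.81 (95% interval -1.12 to -0.502), with luc at 17.7, 13.2 and 19.0 RPKM, so here the atg-2 RNAi libraries were the ones below the control.

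The β-tubulin gene tbb-6 had 127, 97.8 and 110 RPKM with atg-2 RNAi, against 257, 154 and 189 RPKM with atg-18 RNAi. Its difference was also -0.81 (-1.18 to -0.450), and with luc at 101, 105 and 105 RPKM the atg-18 RNAi libraries were the ones above the control. For this pair of genes an equal difference between the RNAi groups lay on either side of the control.

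Smaller differences with tight libraries made up most of the rest. The uridine phosphorylase gene upp-1 had 26.3, 26.4 and 27.1 RPKM with atg-2 RNAi, against 21.9, 22.2 and 21.5 RPKM with atg-18 RNAi, a difference of 0.27. swm-1, which encodes a secreted protease inhibitor known to restrain sperm activation in males, had 261, 249 and 256 RPKM with atg-2 RNAi, against 216, 208 and 217 RPKM with atg-18 RNAi, a difference of 0.26. In the other direction lay fipr-21, of the fungus-induced protein related family, with 114, 112 and 122 RPKM with atg-2 RNAi, against 134, 147 and 144 RPKM with atg-18 RNAi, a difference of -0.29.

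Higher with atg-2 RNAi without being called were also the noncoding RNA gene K07G5.7 at 0.75 and M117.6 at 0.95. Both rest on few recovered reads per library, 22 to 67 for K07G5.7 and only 2 to 10 for M117.6. Lower without being called were T07A9.15 at -0.42, ZK1098.11 at -0.23, T20D4.7 at -0.40, F59C6.16 at -0.21, Y116A8B.4 at -0.44 and lin-31, a forkhead factor of vulval cell fates, at -0.61. In the WBcel235 annotation T07A9.15 overlaps T07A9.10, upp-1 overlaps fbn-1, K07G5.7 overlaps crml-1, ZK1098.11 overlaps unc-16 and F59C6.16 overlaps the cilium gene che-13, so their reads may be shared.

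**Figure D3:**
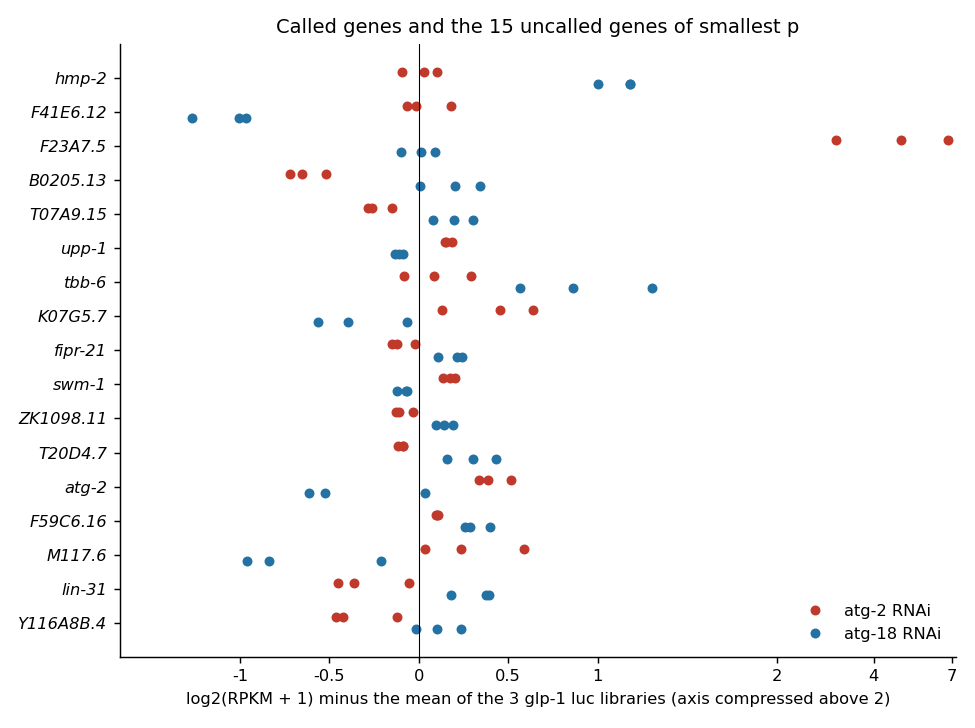
Log2(RPKM + 1) of each atg-2 RNAi and atg-18 RNAi library minus the mean of the 3 luc libraries (axis compressed above 2), for the 2 called genes and the 15 uncalled genes of smallest p. The atg-18 RNAi libraries of hmp-2 and F41E6.12 stand near 1 and -1 while the atg-2 RNAi libraries lie near 0, and for F23A7.5 the atg-2 RNAi libraries lie far from 0.

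Both comparisons with luc use the same 3 control libraries, so their values are only set side by side. In the same model atg-2 RNAi minus luc gave 0 called genes (0.00%; 1002 at an unadjusted p under 0.05, 8.01%), and atg-18 RNAi minus luc gave 3 (0.0240%), hmp-2, F41E6.12 and R08F11.4. With the replicate number as a block the counts were 205 for atg-2 RNAi minus luc and 242 for atg-18 RNAi minus luc. For hmp-2 the differences from luc were 0.01 with atg-2 RNAi and 1.12 with atg-18 RNAi. For F41E6.12 they were 0.03 with atg-2 RNAi and -1.08 with atg-18 RNAi.

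R08F11.4, which has the third called difference from luc, did not separate the RNAi groups. It had 18.6, 24.1 and 26.2 RPKM with atg-2 RNAi, against 25.9, 28.3 and 29.3 RPKM with atg-18 RNAi, and 10.6, 13.3 and 10.7 RPKM with luc. Both RNAi groups were above luc, by 0.93 with atg-2 RNAi and 1.21 with atg-18 RNAi on the log2 scale, and the direct difference was -0.28 (95% interval -0.550 to -0.0101, limma adjusted p = 0.999; -0.14 without atg-2 RNAi library 1). For atg-18 RNAi against luc, the authors' deposited table had 44 genes with a false discovery rate under 0.05, and 2 of them, hmp-2 and F41E6.12, were called in the direct comparison. The authors' deposited table for atg-2 RNAi against luc had 2 such genes, cpt-4 and H02F09.3, of which 0 were called directly. The difference between the RNAi groups was 0.65 (0.149 to 1.15) for cpt-4, of the carnitine palmitoyltransferase family, and -0.04 (-0.487 to 0.407) for H02F09.3. These 3 genes were chosen after their values were seen.

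Most autophagy genes tested differed little between the RNAi treatments, and atg-2 itself had the largest difference among them, without being called. Over the 4 autophagy lists 28 genes were tested, 0 were called, and 1, atg-2, had an unadjusted p under 0.05. Of the 28 genes 8 were higher and 20 lower with atg-2 RNAi, with a median of -0.04, and the 95% interval lay within 0.5 either way for 21. Of all 12507 genes tested 6048 were higher, and 3.21% had an unadjusted p under 0.05. Without atg-2 RNAi library 1 the list medians were -0.005 for initiation, -0.127 for nucleation, -0.095 for conjugation and -0.275 for cargo genes. With all libraries they were 0.034, -0.064, -0.041 and -0.193. The median over all genes was -0.028 without that library and -0.004 with it. Among the genes that start the process, the kinase gene unc-51 differed by 0.06, its partner atg-13 by 0.05 and epg-9, which encodes the ATG101-like subunit, by 0.17. The transmembrane protein gene atg-9 had 25.3, 24.3 and 24.1 RPKM with atg-2 RNAi, against 26.9, 24.9 and 21.5 RPKM with atg-18 RNAi. Its difference was 0.02 (95% interval -0.193 to 0.225), so the groups overlapped. epg-6, a second WIPI-family gene that also binds ATG-2, differed by -0.01 (-0.348 to 0.333).

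Of the 6 tested genes of membrane nucleation 1 lay above 0, epg-5, which acts in the fusion of autophagosomes with lysosomes, at 0.06. The PI3-kinase subunits bec-1, vps-34 and vps-15 differed by -0.02, -0.07 and -0.06. epg-8, the ATG14-like subunit, differed by -0.19 (-0.428 to 0.0570) and epg-4, an endoplasmic reticulum membrane gene, by -0.16 (-0.404 to 0.0860). Of the conjugation genes, which attach ubiquitin-like proteins to lipid, the protease gene atg-4.1 differed by -0.14 (-0.296 to 0.0202) and atg-5 by -0.12 (-0.328 to 0.0923).

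The LC3-like genes were the most abundant of the pathway. lgg-1 had 1876, 1648 and 1758 RPKM with atg-2 RNAi, against 2075, 1656 and 1750 RPKM with atg-18 RNAi, a difference of -0.05 (-0.238 to 0.141). lgg-2 had 275, 233 and 262 RPKM with atg-2 RNAi, against 284, 216 and 247 RPKM with atg-18 RNAi, a difference of 0.05 (-0.174 to 0.273). For both genes the groups overlapped throughout.

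Among cargo genes, the p62-like receptor gene sqst-1 had 94.9, 79.7 and 91.7 RPKM with atg-2 RNAi, against 124, 90.7 and 116 RPKM with atg-18 RNAi. The difference was -0.30 (-0.630 to 0.0312, limma adjusted p = 0.999), and the groups overlapped by 1 library. R102.5 (allo-1 in WBcel235), a receptor for the removal of paternal mitochondria, differed by -0.19, and the scaffold gene epg-2 by 0.21 (0.09 without atg-2 RNAi library 1). The P granule cargo genes pgl-1 and pgl-3 and the receptor gene sepa-1 were below the filter, and of the 6 libraries only atg-2 RNAi library 1 held them above 0.5 RPKM (5.45, 3.19 and 0.914 RPKM). Outside the comparison, pgl-1 and pgl-3 stood at 3.08 and 1.85 RPKM in hlh-30 RNAi library 1 and at 1.82 and 1.21 RPKM in luc library 1.

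**Figure D4:**
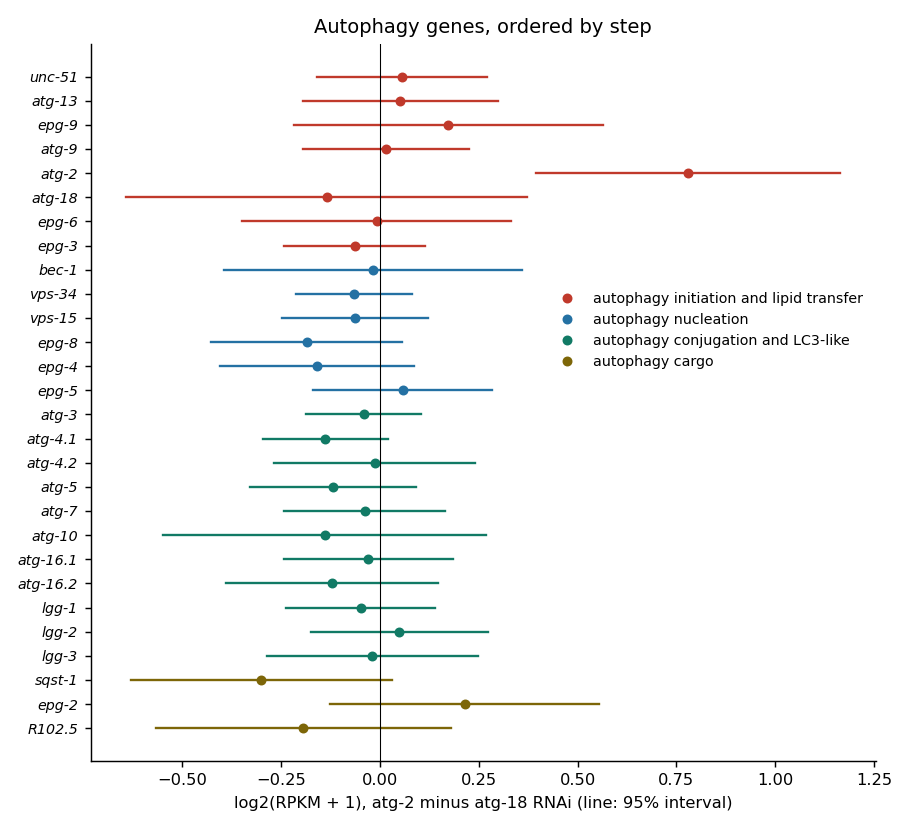
Log2 difference, atg-2 RNAi minus atg-18 RNAi, with its 95% interval for the 28 autophagy genes tested, ordered by step of the pathway. Only the interval of atg-2, from 0.396 to 1.16, does not include 0, and that of atg-18 is the widest of the first list.

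hlh-30, the gene of the TFEB-like factor that drives autophagy and lysosome genes, did not separate the groups, with 53.1, 45.7 and 55.4 RPKM with atg-2 RNAi, against 55.2, 41.8 and 50.2 RPKM with atg-18 RNAi. The lysosomal genes also had no called member, where only 2 of all 12507 genes tested were called. Over the lists of hydrolases, proton pump subunits and membrane or endocytosis genes 71 genes were tested and 0 were called. At an unadjusted p under 0.05 there were 0 higher and 2 lower genes, and 53 of the 71 were lower with atg-2 RNAi, with a median of -0.03. Of all 12507 genes tested 6048 were higher, the median was -0.004, and 3.21% had an unadjusted p under 0.05. The 95% interval lay within 1 either way for all 71 and within 0.5 for 65.

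The 2 lower genes were rab-7, the small GTPase of late endosomes, and vha-19, a pump subunit. rab-7 had 142, 133 and 126 RPKM with atg-2 RNAi, against 153, 145 and 142 RPKM with atg-18 RNAi, a difference of -0.13. vha-19 differed by -0.10 and the related pump gene vha-4 by -0.11. Of the hydrolases, the lipase gene lipl-2 differed by -0.15 (-0.298 to 0.00126) and the cathepsin gene cpz-1 by -0.08 (-0.194 to 0.0389). With both groups scaled on neuronal and muscle genes the median of the pump list was -0.02 and that of the hydrolases 0.02, so the sign of these small shifts depends on the scaling for the hydrolases.

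Neuronal genes, the tissue named for the knockdown, were tested through 7 lists with 154 genes at or above the filter, of which 0 were called. At an unadjusted p under 0.05 there were 5 higher and 3 lower, where 3.21% of all genes tested passed. Of the 154 genes 86 were higher and 68 lower with atg-2 RNAi, with a median of 0.01. The 30 pan-neuronal genes had a median of 0.01. Of these, ric-19, a gene of dense-core vesicle maturation, had 4.80, 5.51 and 6.45 RPKM with atg-2 RNAi, against 7.49, 6.88 and 7.55 RPKM with atg-18 RNAi, a difference of -0.34 (-0.564 to -0.120). The synaptic vesicle GTPase gene rab-3 differed by -0.23 (-0.427 to -0.0315).

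Of the 24 tested genes of single transmitters 14 were above 0, with a median of 0.01. The choline transporter gene cho-1 had 2.66, 1.92 and 2.67 RPKM with atg-2 RNAi, against 2.00, 1.20 and 1.26 RPKM with atg-18 RNAi, a difference of 0.47 (0.108 to 0.826). The GABA synthesis gene unc-25 differed by 0.20 (0.0561 to 0.344). Among neuropeptide genes, flp-3 differed by 0.17 (0.0255 to 0.312), nlp-18 by 0.21 (0.0526 to 0.373), flp-20 by -0.19 and nlp-42 by 0.15. The amidating enzyme gene pamn-1 differed by 0.13 and unc-108, the Rab2 gene, by -0.07. The insulin-like peptide genes ins-22 and ins-3 differed by -0.25 and 0.20, and the cilium genes che-13 and dyf-7 by 0.63 and 0.19. Adjusted p was 0.999 in limma for each of these neuronal genes.

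The double-stranded RNA channel gene sid-1 differed by -0.07 (-0.242 to 0.0962), with 151, 138 and 145 RPKM with atg-2 RNAi, against 166, 143 and 148 RPKM with atg-18 RNAi. In the small RNA list 35 genes were tested, 0 were called and 0 had an unadjusted p under 0.05 in limma. Over all 12507 genes tested the shares were 0.0160% and 3.21%. The nuclear RNAi gene nrde-1 differed by 0.17 and sid-2, which brings double-stranded RNA in from the gut, by -0.15.

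Over all 42 lists 1100 different genes were tested and 0 were called, and 31 (2.82%) had an unadjusted p under 0.05 against 3.21% of all genes. The medians of 37 lists lay within 0.1 of 0. The 5 exceptions were the 3 tested cargo genes above (-0.19), the oocyte and maternal list, the cell cycle list, the germline list and the furrow collagens.

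Longevity regulators of germline-less worms had a median of 0.02, with mxl-3, a Max-like factor of lipase control, at 134, 80.8 and 120 RPKM with atg-2 RNAi, against 104, 51.1 and 56.0 RPKM with atg-18 RNAi. Its difference of 0.70 (-0.0257 to 1.43) had overlapping groups, and the Mad-like gene mdl-1 differed by 0.29 (-0.152 to 0.739; 0.14 without atg-2 RNAi library 1). Targets of the FOXO factor DAF-16 had a median of 0.02, with scl-20 at 0.25 and the insulin-like gene ins-7 at 0.16. Muscle genes had a median of -0.02, with pat-6, the parvin gene, at -0.09 and unc-52, the perlecan gene, at 0.12. Intestinal genes had a median of -0.01, with the ferritin gene ftn-2 at 0.15 (0.0199 to 0.272) and the cathepsin gene cpr-1 at -0.20.

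All 6 yolk protein genes were higher with atg-2 RNAi, with a median of 0.05, though quantile normalization turned vit-5 to -0.06. vit-5 had 11239, 12059 and 11254 RPKM with atg-2 RNAi, against 10927, 11177 and 10805 RPKM with atg-18 RNAi, a difference of 0.07 (-0.0779 to 0.217), and vit-1 differed by 0.13. Hypodermal genes had a median of 0.04, with the hedgehog-related gene grd-14 at 0.20 and the GATA factor gene elt-3 at -0.13. The 59 tested cuticle collagen genes had a median of 0.00 (0.09 without atg-2 RNAi library 1), with col-96 at -0.27 (-0.405 to -0.129) and col-158 at 0.43 (0.0209 to 0.837). The coelomocyte and somatic gonad list had a median of -0.01, with the gonadal factor genes fkh-6 at -0.18 and ceh-18 at 0.17.

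Stress and defence lists had no called member, as was so for all 42 lists. In innate immunity, the median of 57 tested genes was -0.04. The antibacterial peptide gene abf-1 had 17.5, 18.4 and 16.4 RPKM with atg-2 RNAi, against 15.3, 12.4 and 13.2 RPKM with atg-18 RNAi, a difference of 0.34 (0.150 to 0.527). The pathogen-induced gene F35E12.5 (irg-5 in WBcel235) differed by -0.24. Epidermal antimicrobial genes had a median of 0.02, with nlp-33 at 0.22 and nlp-27 at -0.13, and the intracellular pathogen response list had -0.04, with the Skp1-related genes skr-3 at -0.30 and skr-5 at -0.44.

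Cytosolic heat shock genes had a median of 0.05, with the small heat shock gene hsp-43 at -0.24 and hsp-3, a BiP gene of the endoplasmic reticulum, at 0.12. Endoplasmic reticulum chaperones had a median of 0.04. Their disulfide isomerase gene pdi-2 had 494, 458 and 446 RPKM with atg-2 RNAi, against 411, 413 and 397 RPKM with atg-18 RNAi, a difference of 0.19 (0.0413 to 0.346), and pdi-6 differed by 0.13. Mitochondrial stress genes had a median of 0.00, with the protease gene spg-7 at -0.18 and the superoxide dismutase gene sod-2 at 0.09. Detoxification genes had a median of -0.01, with ugt-29 at -0.33 and cyp-35D1 at -0.20, and the redox list had 0.01, with sod-4 at -0.17.

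Metabolic and core lists had medians within 0.1 of 0. Of 66 tested fat metabolism genes 6 had an unadjusted p under 0.05 (9.09%, against 3.21% of all genes). Of these 3 were higher and 3 lower, and the list had a median of 0.00. The acyl-CoA dehydrogenase gene acdh-1 had 83.7, 145 and 111 RPKM with atg-2 RNAi, against 150, 193 and 205 RPKM with atg-18 RNAi. Its difference was -0.71 (-1.18 to -0.231), while its relative acdh-7 differed by 0.17 (0.0623 to 0.269). Carbohydrate metabolism had a median of 0.01, with gpd-1 at 0.53 (0.15 without atg-2 RNAi library 1) and the trehalase gene tre-3 at -0.10. The respiratory chain had -0.01, with sdha-2 at 0.12 and ucr-2.3 at 0.45 (0.03 without that library). Ribosomal proteins had 0.02, with rpl-25.2 at 0.11 and rps-14 at 0.08, and the proteasome had -0.02, with rpt-6 at -0.15 and rpn-12 at -0.12. Histones had 0.03, with his-17 at 0.27 (0.11 without that library) and his-61 at -0.28.

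**Figure D5:**
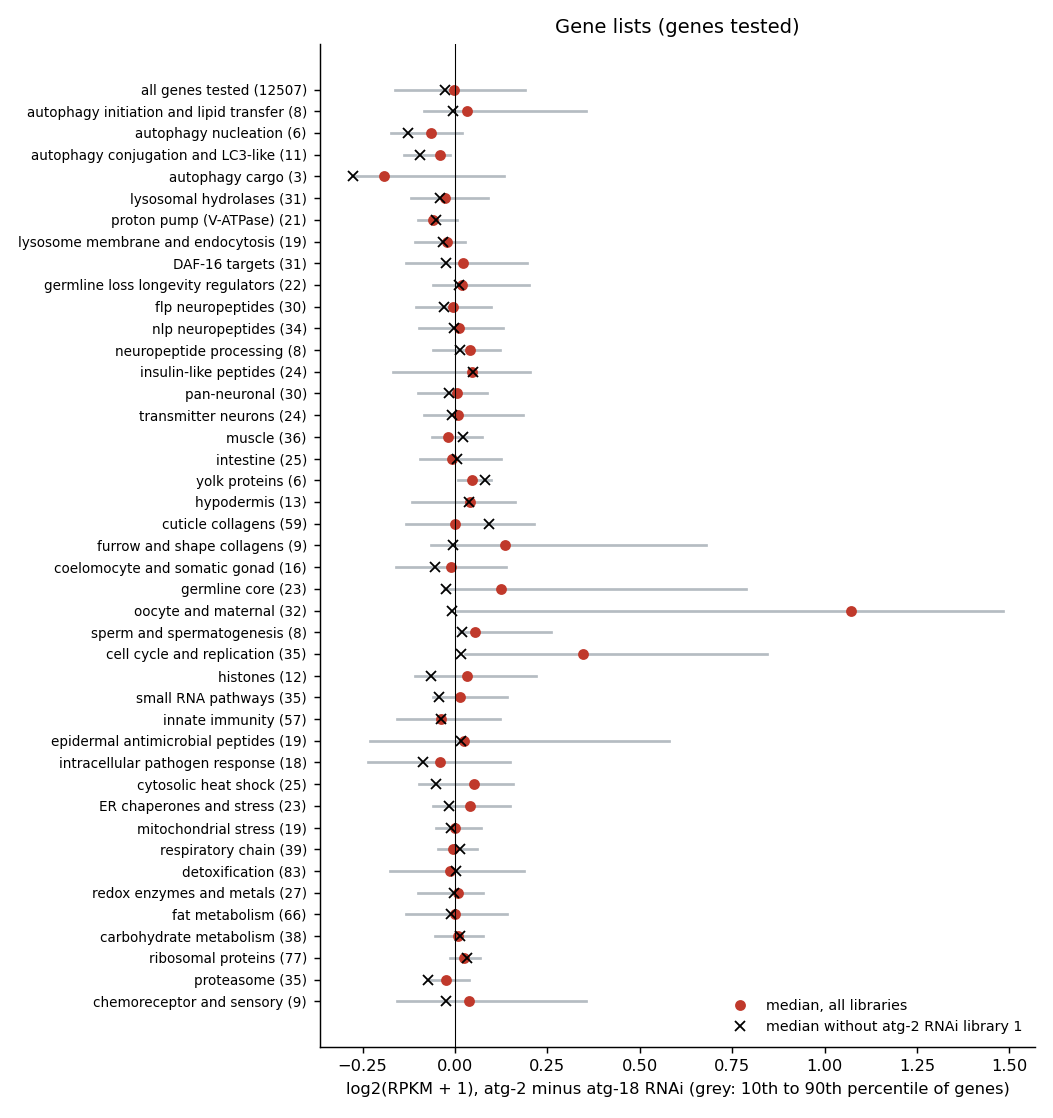
Median log2 difference, atg-2 RNAi minus atg-18 RNAi, of each gene list with the number of genes tested (grey lines: 10th to 90th percentile of its genes). Red dots use all libraries and crosses leave out atg-2 RNAi library 1; the oocyte and maternal median is 1.07 with that library and -0.01 without it.

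Among the 6 libraries, the lists of germline and dividing cells set 1 library apart, not the groups. Of the 32 tested oocyte and maternal genes 0 were called, their median was 1.07, and 29 had their highest value of the 6 libraries in atg-2 RNAi library 1. The filter used the mean of these same 6 libraries and admits genes that are high in that library alone. The median and the count are therefore partly set by the filter. The 36 listed genes given next were not filtered this way. Set against TU3401 worms on luc RNAi, which have a germline, the median level over the 36 listed genes was 2.57%, 0.0547% and 0.0666% in the atg-2 RNAi libraries, against 0.0543%, 0.0492% and 0.0658% in the atg-18 RNAi libraries. Library 1 was also the highest with hlh-30 RNAi, at 1.63% against 0.0434% and 0.0797%, and with luc RNAi, at 0.946% against 0.0528% and 0.0672%, so 3 of the 4 libraries numbered 1 carried this RNA. The part of germline tissue in any single gene's difference was not tested beyond leaving out library 1.

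Without atg-2 RNAi library 1 the same 32 genes ranged from -0.28 to 0.16, with a median of -0.01. The oocyte gene sip-1, which encodes a small heat shock protein of embryos, shows the pattern with 84.2, 0.553 and 0.270 RPKM with atg-2 RNAi, against 0.474, 0.173 and 0.221 RPKM with atg-18 RNAi. The eggshell gene cpg-1 had 34.3, 0.101 and 0.0738 RPKM with atg-2 RNAi, against 0, 0.0708 and 0 RPKM with atg-18 RNAi. The yolk receptor gene rme-2 had 10.02 RPKM in library 1 and 0 in the other 2 atg-2 RNAi libraries. The eggshell layer genes perm-2 and perm-4 of the same list differed by -0.02 each.

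The 2 genes of smallest p in this list were the broadly used tubulin gene tbb-2 at -0.06 and egg-6, known from epithelial tubes, at 0.61. egg-6 had 4.83, 0.752 and 1.00 RPKM with atg-2 RNAi, against 0.646, 0.775 and 0.956 RPKM with atg-18 RNAi, and without library 1 its difference was 0.07. Cell cycle genes had a median of 0.35, and 0.02 without library 1. Their kinase gene cdk-2 had 6.17, 4.96 and 5.50 RPKM with atg-2 RNAi, against 4.97, 3.25 and 3.36 RPKM with atg-18 RNAi, a difference of 0.44 (0.0613 to 0.824), and the centrosome gene spd-5 differed by 0.13. Germline genes had a median of 0.13, and -0.02 without library 1, with the Nanos-like gene nos-2 at 0.52 (0.21 without library 1) and the RNA helicase gene cgh-1 at 0.43 (0.10 without it). The Notch receptor gene glp-1 differed by 0.07, and by -0.11 without library 1.

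Furrow and shape collagens had a median of 0.13 over 9 genes, and -0.01 without library 1, with rol-8 at 0.20 and dpy-9 at 0.13. Sperm genes had 0.06 over 8 genes, with nspd-2 at 0.37 and the myosin gene spe-15 at 0.10. None of these genes had a limma adjusted p under 0.05. hmp-2 and F41E6.12 did not follow library 1: without it their differences were -1.15 and 1.14, with limma adjusted p of 0.0393 and 0.0665.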

How the data were processed

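RNA was sequenced from 15 whole-worm libraries in 5 groups of 3. The authors deposited 4 tables of RPKM per library, each with the same 3 glp-1 luc columns (0 values differed between copies). Per the file headers, the tables also hold the authors' log2 fold changes, the authors' p-value and false discovery rate, and a ranking score. The submitters' processing notes name TopHat2 2.1.1, bcl2fastq and, although these are worm data, the human build GRCh38. The sources used here do not give the counter, annotation, strand use or the authors' test, and no coordinates are printed. WBcel235 gave current names, biotypes and neighbours (40268 of 42048 names matched).

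RPKM values are whole multiples of 1 step per gene and library, so reads were recovered for 24620 of 24620 detected genes (relative tolerance 5e-09) and depth from the 21-base 21ur genes. Libraries of a group differed by more than sampling noise (a chi-square of 7.07 to 22.0 per degree of freedom; 0 were identical). In R 4.3.3, limma 3.58.1 with its trend option fitted log2(RPKM + 1) of the 12 glp-1 libraries as 4 group means; genes needed a mean of at least 1 RPKM over the 6 libraries. Depth sets no interval here; a single gene's exact permutation p cannot go below 0.1 with groups of 3. The method was tested on simulated data with independent noise per library, so that test does not cover effects shared by same-numbered libraries. Python 3.11.15, pandas 2.3.3 and matplotlib 3.10.9 made tables and figures.

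Named genes were 10 fixed ones (autophagy genes, hlh-30, sid-1, glp-1), called genes of at least 2 RPKM with groups that do not overlap, the 15 uncalled such genes of smallest p, and the 2 of smallest p per list. The comparison and the lists were chosen with earlier results of these data known. Pairing by the titles' replicate numbers was checked: deviations of same-numbered atg-2 and atg-18 RNAi libraries from their group means correlated across genes (r = 0.151, 0.183 and 0.170), so the block is given where it changes a call. Alternatives covered the pseudocount, filter, trend, robust fitting, scaling, libraries in the fit, the replicate block and leaving out libraries; leaving out hlh-30 and luc libraries was added after seeing the data.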

Additional observations from a re-analysis of the deposited data

Results flagged for a closer look

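2 results stood out because the atg-2 RNAi and atg-18 RNAi groups differed under the same control, by a direct test of the difference. hmp-2 differed by -1.11 on the log2 scale (limma adjusted p = 0.0171; lower in 3 of 3 atg-2 RNAi libraries than in every atg-18 RNAi library), with differences from luc of 0.01 for atg-2 RNAi and 1.12 for atg-18 RNAi. F41E6.12 differed by 1.11 (limma adjusted p = 0.0171; higher in 3 of 3), with differences from luc of 0.03 for atg-2 RNAi and -1.08 for atg-18 RNAi.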

How the results depend on the processing

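Under 24 alternatives hmp-2 kept its direction (-1.17 to -1.06) and was called in 15, and F41E6.12 kept its direction (1.02 to 1.19) and was called in 13. The 2 called genes of the direct comparison became 0 with only the 6 libraries in the fit, 0 with a replicate block on those 6, 1 (hmp-2) with the replicate block on all 12, 1 (F23A7.5) without replicate 1 of both RNAi groups, and 0 to 3 with single libraries left out. The count was 0 without any 1 of the atg-18 RNAi libraries or atg-2 RNAi library 2, and 1 without atg-2 RNAi library 3 or hlh-30 RNAi library 1. It was 3 with a pseudocount of 0.1, without a filter and with a filter of 5 RPKM. It was 2 scaled on neuronal and muscle genes, but these were F23A7.5 and F41E6.12, and 2 without atg-2 RNAi library 1, F23A7.5 and hmp-2. The cause was not tested, beyond fewer libraries in these fits. Genes called for atg-2 RNAi minus luc (0) were 1 without a filter, 2 with a filter of 5 RPKM, 2 scaled on neuronal and muscle genes, 2 without replicate 1 of both RNAi groups, and 0 to 28 with single libraries left out (28 without luc library 3). Genes called for atg-18 RNAi minus luc (3) were 1 without replicate 1 of both RNAi groups and 0 to 4 with single libraries left out (0 without any atg-18 RNAi library, 1 without luc library 2). With the replicate block, atg-2 RNAi minus luc gave 205 genes (46 higher, 159 lower) and atg-18 RNAi minus luc 242 (62 higher, 180 lower). Same-numbered libraries correlated at 0.423, 0.256 and 0.204 for atg-2 RNAi and luc, and at 0.218, 0.219 and 0.0895 for atg-18 RNAi and luc. Whether a number marks a shared batch was not tested. The atg-18 difference reversed to 0.15 without atg-18 RNAi library 3, and leaving out single libraries gave -0.46 to 0.15 for atg-18 and 0.66 to 0.98 for atg-2. No gene of the 42 lists was called under any alternative. Of 2812 values of 118 other named genes, 18 moved by more than the replicate SD and 6, all of F23A7.5, passed the threshold. The remaining 2788 did neither, but small differences among them could change sign. Over the alternatives glp-1 ranged from -0.11 to 0.24 and epg-6 from -0.12 to 0.18. Few reads lie behind the 21ur genes, M117.6 and genes near 1 RPKM.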
